A study of Mus musculus with 6 samples.

Results

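Transcripts of 10 growth factor and receptor genes were followed in mouse lung fibroblasts exposed to DKK1. They are the platelet-derived growth factor (PDGF) receptors Pdgfra and Pdgfrb, the PDGF ligands Pdgfa, Pdgfb and Pdgfc, the vascular endothelial growth factor (VEGF) ligands Vegfa, Vegfc and Vegfd, angiopoietin 1 (Angpt1) and hepatocyte growth factor (Hgf). The genes were listed by name, with earlier results of these data known, and all 10 were found among the 45706 genes of the table. The control group was 3 samples of fibroblasts labelled control, and the DKK1 group was 3 samples kept for 24 hours with 30 ng/ml of recombinant DKK1 of the mouse. DKK1 is a secreted antagonist of Wnt signalling that acts on the co-receptor LRP6. The cells came from wild-type mice whose strain, age and sex are not given in the sources used here. All samples were cultured from perfused lungs digested with collagenase and trypsin and then grown in serum-containing medium, and how the cells were purified is not stated. The labels do not say whether the samples of a group came from separate animals or cultures, so p-values measure the spread between these samples, which may be technical.

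PDGF ligands are dimers that drive the growth and migration of mesenchymal cells. Of the A, B and C chains, receptor alpha (encoded by Pdgfra) binds all, and receptor beta (Pdgfrb) binds mainly the B chain. In the lung, Pdgfra marks many fibroblasts, including the alveolar ones, and Pdgfrb is a marker of pericytes and other mural cells. VEGF-A acts on the endothelium of blood vessels and VEGF-C and VEGF-D mainly on that of lymphatics, while angiopoietin 1 activates the endothelial receptor TIE2 and hepatocyte growth factor activates MET on epithelial cells.

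Library totals lay between 22565917 and 34727102 counts. The fibroblast markers were abundant (summed over 10 genes, 15409 to 16981 CPM, the usual read count scaled to a common library total, in control and 14167 to 15958 CPM with DKK1), and all 10, Pdgfra among them, passed the count filter. Replicate 3 of both groups stood apart, with higher summed markers of other cell types: the 12 endothelial markers summed to 107 and 104 CPM there against 44.1 to 56.2 CPM in the other 4 libraries, the 10 epithelial markers to 130 and 129 CPM against 39.9 to 49.4 CPM, and the 10 leukocyte markers to 825 and 860 CPM against 410 to 494 CPM. Same-numbered samples deviated together from their group means (correlations across genes of 0.207 to 0.38), so each member is given both unpaired and blocked by replicate number (the paired fit).

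Hgf rose with DKK1 in both fits, by 1.76-fold. A further 4 members, Pdgfra, Vegfa, Vegfc and Angpt1, were higher and 1, Pdgfrb, was lower in the paired fit alone. Pdgfa, Pdgfb, Pdgfc and Vegfd passed in neither. All 10 were expressed enough to be tested. Calls rest on an adjusted p under 0.05 over the 14635 genes tested (edgeR quasi-likelihood test, Benjamini-Hochberg). The unpaired fit called 1 of the 10 members, against 0.895% of all genes tested, and 5 of 10 had an unadjusted p under 0.05, against 10.6% of all genes. The paired fit called 5 of 10 higher, against 4.96% of all genes, and 1 of 10 lower, against 4.46%. Groups did not overlap in CPM for 5 of the 10 members (Pdgfrb, Vegfa, Vegfc, Angpt1 and Hgf), against 16.5% of all genes tested. The median log2 fold change was 0.09 over the members and 0.00 over all genes (-0.0009).

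**Figure D1:**
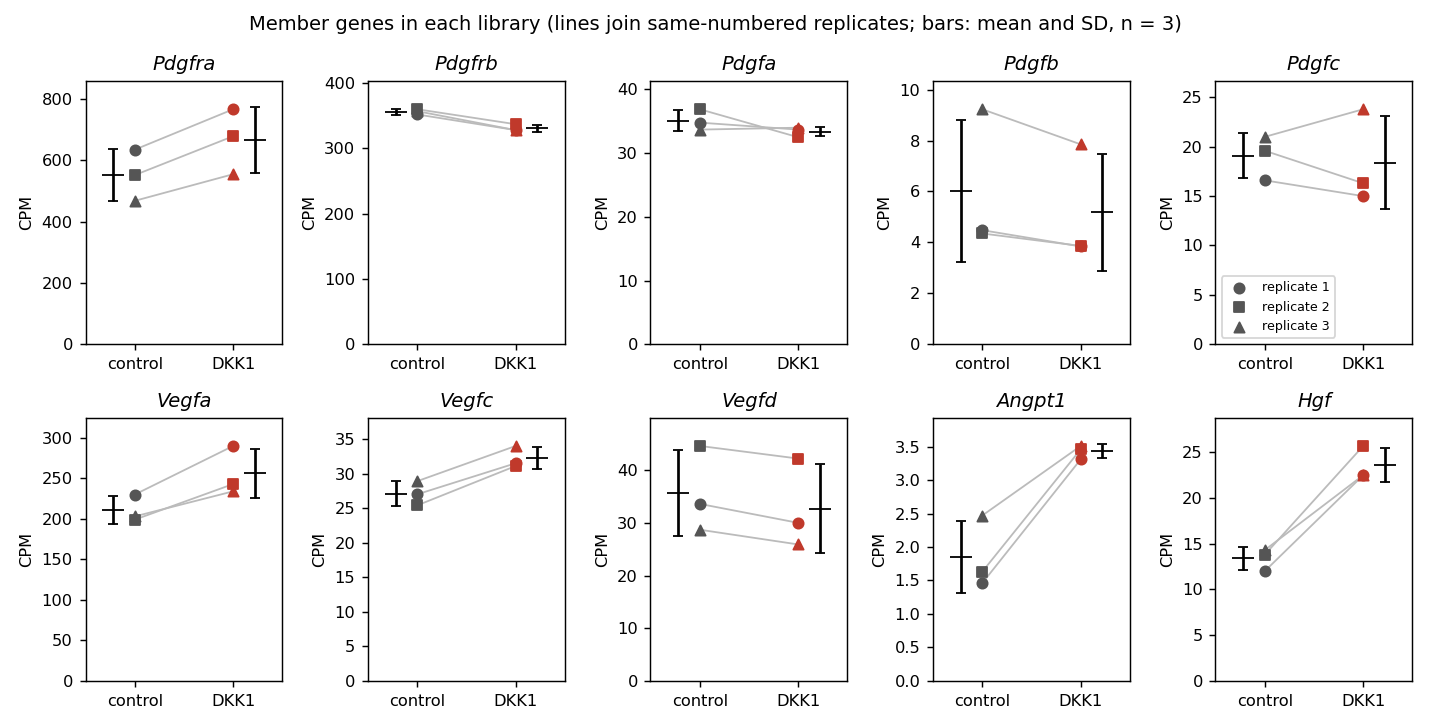
Level in CPM (linear axis from 0) of each of the 10 genes in the 3 control and 3 DKK1 libraries, with grey lines joining libraries of the same replicate number and black bars giving the mean and SD. Every line rises for Pdgfra, Vegfa, Vegfc, Angpt1 and Hgf, and every line falls for Pdgfrb, Pdgfb and Vegfd.

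**Figure D2:**
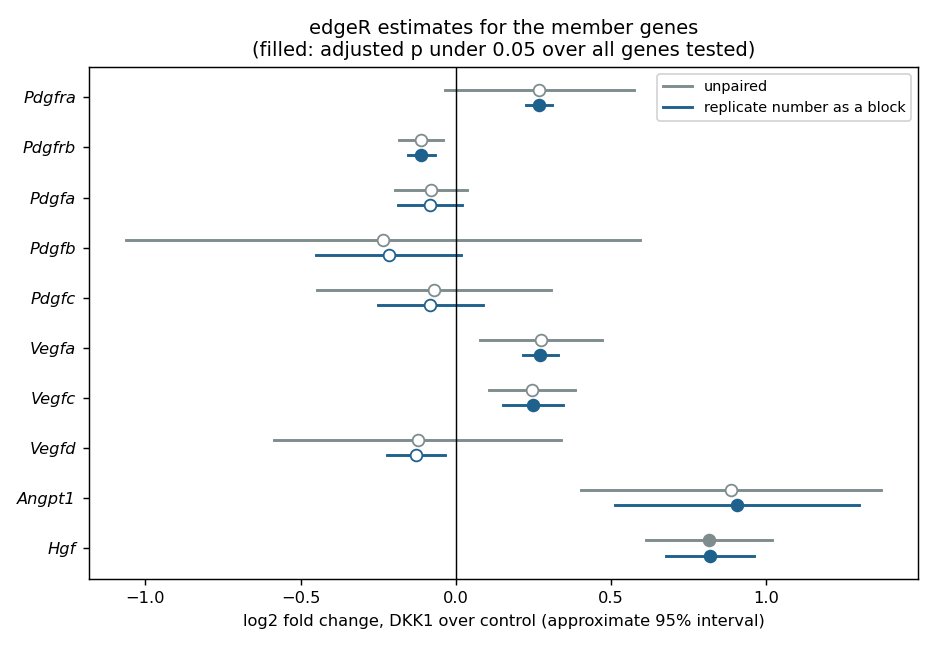
Log2 fold change of DKK1 over control with approximate 95% intervals, from the unpaired fit (grey) and the paired fit (blue). Filled circles passed the adjusted p threshold: Hgf alone in grey, and Pdgfra, Pdgfrb, Vegfa, Vegfc, Angpt1 and Hgf in blue.

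Windows before the transcription start were used for 7 of the 10 members, and 4 of the 5 that were higher are among them. No window of the other members was searched, so nothing is said of their motifs. The sequences before the starts of these 4 are shown because each was called higher with DKK1 in the paired fit. Each is the 250 bases before the first RefSeq start in build GRCm38.p6, 5′ to 3′ on the gene's strand: Hgf at chr5:16553245-16553494 (plus strand), Vegfa at chr17:46032378-46032627 (minus strand), Vegfc at chr8:54077282-54077531 (plus strand) and Pdgfra at chr5:75152001-75152250 (plus strand). Capitals mark matches to 4 motifs searched on both strands: the hypoxia response element core ACGTG, a C/EBP motif TTGCNNAA, an AP-1 motif TGANTCA and a TCF/LEF motif CTTTGAT.
Hgf: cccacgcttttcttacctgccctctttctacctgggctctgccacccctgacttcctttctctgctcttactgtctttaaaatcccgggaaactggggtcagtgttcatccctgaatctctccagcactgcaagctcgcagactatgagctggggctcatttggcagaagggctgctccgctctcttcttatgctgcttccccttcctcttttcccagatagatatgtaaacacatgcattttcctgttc
Vegfa: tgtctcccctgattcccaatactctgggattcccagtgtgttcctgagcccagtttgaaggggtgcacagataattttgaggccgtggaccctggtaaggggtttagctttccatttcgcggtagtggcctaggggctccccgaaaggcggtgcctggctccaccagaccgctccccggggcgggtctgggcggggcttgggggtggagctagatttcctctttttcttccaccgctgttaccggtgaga
Vegfc: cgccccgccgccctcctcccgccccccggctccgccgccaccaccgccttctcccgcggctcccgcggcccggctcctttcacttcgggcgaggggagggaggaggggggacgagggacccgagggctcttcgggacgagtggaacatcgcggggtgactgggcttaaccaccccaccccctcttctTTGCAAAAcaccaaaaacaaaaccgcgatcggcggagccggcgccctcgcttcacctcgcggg
Pdgfra: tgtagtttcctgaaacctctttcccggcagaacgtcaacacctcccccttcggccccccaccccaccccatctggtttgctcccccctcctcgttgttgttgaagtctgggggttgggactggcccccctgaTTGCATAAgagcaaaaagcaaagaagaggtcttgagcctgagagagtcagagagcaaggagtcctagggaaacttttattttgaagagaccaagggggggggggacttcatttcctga
The C/EBP letters stand in the Pdgfra window, beginning 118 bases before the start, and in the Vegfc window, beginning 63 bases before it. They occur in 9.56% of the 32851 windows of this length in the reference. The other 3 motifs, found in 16.6% (ACGTG), 6.75% (AP-1) and 3.21% (TCF/LEF) of the windows, have no match in these 4. Second starts were searched too, for 10 windows in all; of the 6 not shown, 1 held a match, the letters ACGTG 211 bases before the second Vegfa start. The 4 windows shown differ in composition, from 50.8% G and C in Hgf to 71.6% in Vegfc.

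Hgf (ENSMUSG00000028864) showed the clearest change. HGF is made mainly by mesenchymal cells and acts on neighbouring epithelium through the MET receptor. The gene lies at chr5:16553495-16620152 (GRCm38, plus strand). Its level was 12, 13.8 and 14.3 CPM in control replicates 1 to 3 and 22.5, 25.7 and 22.5 CPM in DKK1 replicates 1 to 3. The lowest DKK1 library stood well above the highest control library. The means were 13.4 ± 1.23 and 23.6 ± 1.88 CPM (SD, n = 3 each). In log2 terms this was a rise of 0.81 with an SE of 0.09 (edgeR adjusted p = 0.00689; paired fit 0.82, SE 0.07, adjusted p = 2.97e-06). Hgf was called in each of the 6 fits that left out 1 library (adjusted p 0.0102 to 0.0354). Without replicate 3 of both groups its log2 fold change was 0.89 (adjusted p = 0.0147). Its expected counts had a fractional part in all 6 libraries, as did those of Pdgfa, while those of Pdgfra did in 5 libraries. The Hgf gene model overlaps Gm43489 on the same strand, which had at most 17.9 counts in a library.

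Leukocytes can also make HGF, and some leukocyte markers moved with DKK1 as well. Of the 8 tested leukocyte markers, 3 (Adgre1, S100a8 and Itgam) rose, 2 (Csf1r and Mrc1) fell and 3 did not pass in the paired fit, and none was called in the unpaired fit, where 2 had an unadjusted p under 0.05. Without replicate 3 Csf1r did not pass (adjusted p = 0.377). The summed level of the 10 listed was 410 to 825 CPM in control and 451 to 860 CPM with DKK1, most of it from Lyz2 (340 to 696 CPM in control and 370 to 722 CPM with DKK1), and Cd3e, a T cell marker, was at 0 in every library. Their part in the Hgf result was not tested. The bulk libraries cannot tell fewer cells of a type from less RNA per cell.

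The 5 tested genes with the profile nearest to that of Hgf over the 6 libraries were Dio2, Cd55, Bcl3, Tnfsf15 and Igfbp5. The distance was the root mean square difference of log2(CPM + 0.5), each gene taken relative to its control mean, and ran from 0.0733 for Dio2 to 0.106 for Igfbp5. Dio2, which encodes a deiodinase that activates thyroid hormone, went from 16.0 to 29.7 CPM, and Igfbp5, an insulin-like growth factor binding protein, from 80.1 to 146 CPM.

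Angpt1 (ENSMUSG00000022309, chr15:42424723-42676977, minus strand) had the lowest level of the 10 and a fold change near that of Hgf. Angiopoietin 1 is secreted by perivascular and mesenchymal cells and steadies vessels through TIE2. It was measured at 1.46, 1.63 and 2.47 CPM in control replicates 1 to 3 and at 3.31, 3.46 and 3.51 CPM in DKK1 replicates 1 to 3, from 33 to 120 counts per library. The DKK1 libraries were close together and above all control libraries, of which replicate 3 was the highest. From 1.85 ± 0.542 to 3.43 ± 0.102 CPM (SD, n = 3 each), the log2 fold change reached 0.88 (SE 0.21, edgeR adjusted p = 0.133), and 0.91 in the paired fit (SE 0.18, adjusted p = 0.00578). DESeq2 with the same block did not call it (adjusted p = 0.129). Without control replicate 3 the unpaired log2 fold change was 1.13 and passed (edgeR adjusted p = 0.0444), the only 1 of the 6 fits without 1 library to do so. The other 5 gave 0.75 to 0.91 (adjusted p 0.228 to 0.349).

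Among the VEGF ligands, Vegfa and Vegfc were higher with DKK1 and Vegfd was not called. Vegfa (ENSMUSG00000023951, chr17:46016993-46032369, minus strand), the hypoxia-inducible ligand of the blood vessel endothelium, stood at 230, 199 and 203 CPM in control replicates 1 to 3 and at 290, 243 and 234 CPM in DKK1 replicates 1 to 3. The groups were separated by a narrow gap, between control replicate 1 and DKK1 replicate 3. Within pairs the log2 difference was 0.335, 0.285 and 0.205. The log2 fold change came to 0.27 (SE 0.09, edgeR adjusted p = 0.27; paired fit 0.27, SE 0.03, adjusted p = 1.48e-05), which is 1.21-fold. Without DKK1 replicate 1, the highest library, the unpaired value was 0.17.

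Vegfc (ENSMUSG00000031520, chr8:54077606-54187096, plus strand), the main lymphatic ligand, stood at 27.0, 25.4 and 28.9 CPM in control replicates 1 to 3 and at 31.5, 31.1 and 34.0 CPM in DKK1 replicates 1 to 3. Replicate 3 was the highest library in each group, and the groups did not overlap. The log2 fold change came to 0.24 (SE 0.06, edgeR adjusted p = 0.14; paired fit 0.25, SE 0.04, adjusted p = 0.0028), about 1.19-fold in the paired fit. DESeq2 with the block did not call it (adjusted p = 0.211). The secreted proteins that together cleave VEGF-C into its active form are the protease ADAMTS3 and the cofactor CCBE1. Ccbe1 went from 69.0 ± 8.40 to 95.4 ± 15.9 CPM (SD, n = 3 each) and Adamts3 from 1.22 ± 0.265 to 2.28 ± 0.296 CPM. Both rose in the paired fit (edgeR adjusted p = 1.23e-06 for Ccbe1 and 0.014 for Adamts3) and neither was called unpaired (0.176 and 0.151).

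Vegfd (ENSMUSG00000031380, chrX:164373378-164402650, plus strand), a second lymphatic ligand, varied more between replicate numbers than between groups. Control replicates 1 to 3 held 33.6, 44.6 and 28.7 CPM and DKK1 replicates 1 to 3 held 30.0, 42.2 and 25.9 CPM. Replicate 2 was the highest in both groups, and the DKK1 library was the lower in each pair. The unpaired log2 fold change was -0.12 with an SE of 0.20 (edgeR adjusted p = 0.899), and it was -0.13 in the paired fit (SE 0.04, 95% interval -0.22 to -0.04, adjusted p = 0.086), which was not called.

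The PDGF receptors moved in opposite directions. Pdgfra (ENSMUSG00000029231, chr5:75152292-75198215, plus strand) was measured at 635, 552 and 468 CPM in control replicates 1 to 3 and at 767, 679 and 555 CPM in DKK1 replicates 1 to 3. Replicate 1 was the highest and replicate 3 the lowest in both groups, so the groups overlapped while each pair differed by a similar amount. Pair differences were 0.272, 0.297 and 0.246 on the log2 scale. The log2 fold change was 0.27 in both fits, with an SE of 0.13 unpaired (edgeR adjusted p = 0.547) and 0.02 paired (adjusted p = 9.75e-07), or 1.20-fold. Leaving out 1 library moved the unpaired value to between 0.16 (0.1552 without DKK1 replicate 1 and 0.1569 without control replicate 3) and 0.39 (0.3868 without DKK1 replicate 3). Without replicate 3 of both groups, the paired value was 0.28 (adjusted p = 2.68e-05). Other fibroblast markers moved both ways in the paired fit: Dcn, which encodes decorin, rose as well, while Col1a1, Col1a2, Thy1 and Fn1 fell, and the other 4 of the 10 were not called. Without replicate 3, Thy1 and Fn1 did not pass (adjusted p = 0.165 and 0.0557). Their part in the Pdgfra result was not tested.

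Pdgfrb (ENSMUSG00000024620, chr18:61045150-61085061, plus strand) was the steadiest of the members, at 352, 360 and 357 CPM in control replicates 1 to 3 and 328, 337 and 328 CPM in DKK1 replicates 1 to 3. The groups did not overlap. Its log2 fold change was -0.11 in both fits, or 0.926-fold, with an SE of 0.03 unpaired (edgeR adjusted p = 0.205) and 0.02 paired (adjusted p = 0.00262). With the GC and length trend of each library also removed, the paired value was -0.09 (adjusted p = 0.00757). Smooth muscle markers were lower as well. In the paired fit 7 of the 8 tested fell, against 4.46% of all genes, and 1, Myh11, fell in the unpaired fit. Their sum was 9741 to 10858 CPM in control and 8330 to 9693 CPM with DKK1. Of 7 tested pericyte markers, 1 (Kcnj8) rose and 1 (Cspg4) fell in the paired fit, and the summed level of the 8 listed was 54.3 to 72.5 CPM in control and 56.2 to 70.0 CPM with DKK1. Whether these smooth muscle and pericyte markers are linked to the Pdgfrb result was not tested.

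The ratio of Pdgfra to Pdgfrb within a library, in CPM per kilobase of exon, was 0.987, 0.838 and 0.717 in control replicates 1 to 3 and 1.28, 1.10 and 0.926 in DKK1 replicates 1 to 3. Replicates 1 had the highest ratio and replicates 3 the lowest, and the DKK1 library was higher in each pair. The log2 ratio was -0.25 ± 0.231 in control and 0.13 ± 0.232 with DKK1 (SD, n = 3 each), a difference of 0.379 (exact permutation test, two-sided, p = 0.2, where 3 against 3 cannot give less than 0.1). Same-numbered differences were 0.371, 0.394 and 0.371, and an exact sign-flip permutation of these 3 cannot give less than the p of 0.25 it gave. Which receptor is the more abundant depends on the length used: with the longest transcript in place of all exons, the mean ratio was 1.23 in control and 1.6 with DKK1.

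None of the 3 PDGF ligands was called in either fit. Pdgfa (ENSMUSG00000025856, chr5:138976014-138997370, minus strand), the A chain, was at 34.8, 36.9 and 33.7 CPM in control replicates 1 to 3 and at 33.7, 32.5 and 34.0 CPM in DKK1 replicates 1 to 3. Its values lay close together and overlapped, with a log2 fold change of -0.08 in both fits (95% interval in the paired fit -0.19 to 0.02; edgeR adjusted p = 0.662 unpaired and 0.354 paired). Leaving out 1 library gave -0.12 (-0.1154 without control replicate 3) to -0.04 (-0.0395 without control replicate 2). The Pdgfa gene model overlaps 6330403L08Rik on the opposite strand, which reached 10.7 CPM, and whether reads were counted by strand is not given in the sources used here.

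Pdgfc (ENSMUSG00000028019, chr3:81036416-81214040, plus strand), a chain that must be cleaved to become active, was at 16.6, 19.6 and 21 CPM in control replicates 1 to 3 and at 15, 16.3 and 23.8 CPM in DKK1 replicates 1 to 3. Replicate 3 was the highest in both groups. It was lower with DKK1 in pairs 1 and 2 and higher in pair 3, and the log2 fold change came to -0.07 (SE 0.17, edgeR adjusted p = 0.942; paired fit -0.08, SE 0.08, adjusted p = 0.615).

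Pdgfb (ENSMUSG00000000489, chr15:79995874-80014977, minus strand), the B chain that endothelial cells use to recruit mural cells, was at 4.48, 4.35 and 9.23 CPM in control replicates 1 to 3 and at 3.84, 3.86 and 7.85 CPM in DKK1 replicates 1 to 3. Replicate 3 held the most in both groups. The log2 fold change came to -0.23 (SE 0.36, edgeR adjusted p = 0.89; paired fit -0.22, SE 0.11, 95% interval -0.45 to 0.02, adjusted p = 0.285), and without control replicate 3 it was 0.20 (adjusted p = 0.897). The summed endothelial, epithelial and leukocyte markers were also highest in replicate 3 of both groups, though single markers such as Ramp2 and Hopx, named after their values were seen, were not. None of the 12 endothelial markers was called in either fit, where 0 had an unadjusted p under 0.05 in the unpaired one, and none was at 0 in all libraries. Their part in the Pdgfb level was not tested.

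**Figure D3:**
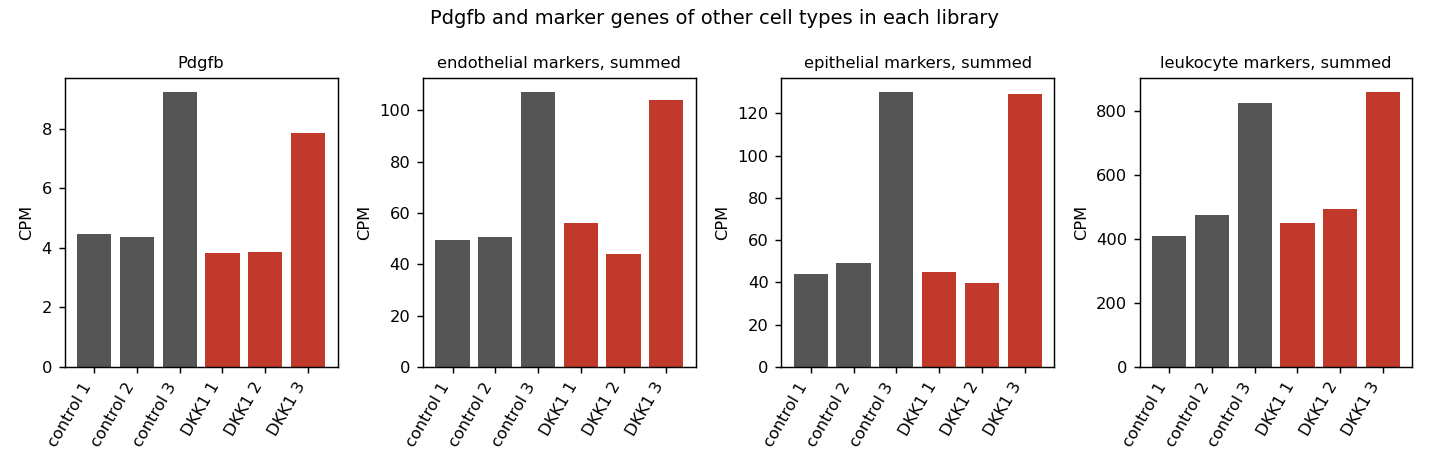
Pdgfb and the summed endothelial, epithelial and leukocyte markers in each of the 6 libraries, as bars of CPM on linear axes from 0 (grey, control; red, DKK1). The bars of replicate 3 are the highest in each group in all 4 panels.

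Levels of different genes were compared per kilobase of exon. In control cells Pdgfrb (65.0 ± 0.781 CPM per kb, SD, n = 3), Pdgfra (55.1 ± 8.35) and Vegfa (49.2 ± 3.92) were the most abundant. Pdgfra and Vegfa overlapped. Vegfd (14.8 ± 3.39 CPM per kb), Pdgfa (11.3 ± 0.518) and Vegfc (11.1 ± 0.719) followed. Every control value of Vegfd lay above those of Pdgfa and Vegfc, by a narrow margin at the lowest, and Pdgfa and Vegfc overlapped. Pdgfc was at 3.75 ± 0.446 CPM per kb. Hgf (1.86 ± 0.171 CPM per kb) and Pdgfb (1.45 ± 0.668) overlapped in control, and Angpt1 was lowest at 0.356 ± 0.104. With DKK1, Hgf was at 3.28 ± 0.262 CPM per kb and Pdgfb at 1.25 ± 0.555, and these ranges did not meet. With the longest transcript as the length, Pdgfra came before Pdgfrb and the other 8 ranks held, but the gaps changed: the control means were 17.4 CPM per kb for Vegfd, 17 for Pdgfa and 11.1 for Vegfc, and 3.86 for Hgf and 2.04 for Pdgfb, whose control ranges then did not meet.

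**Figure D4:**
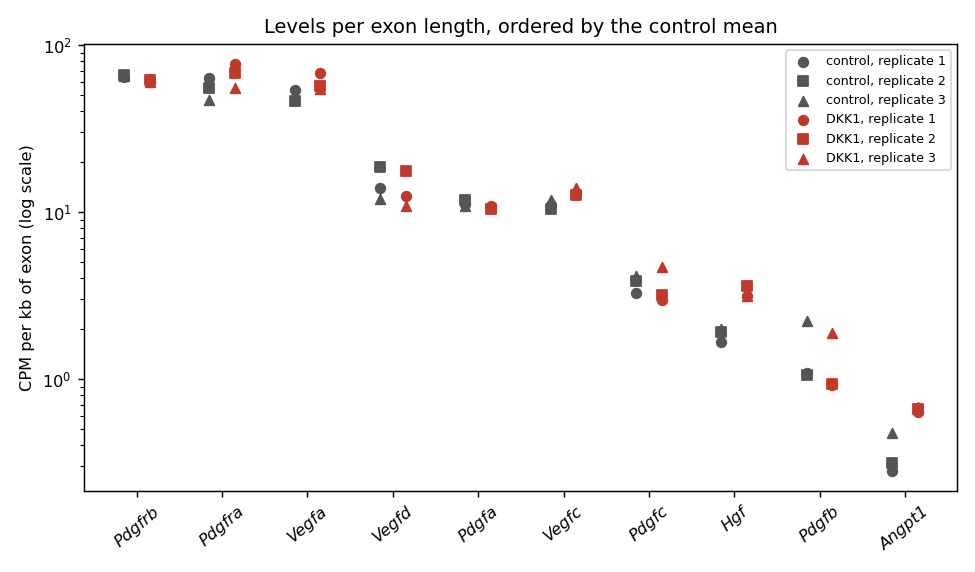
Level of each gene in each library in CPM per kb of exon (logarithmic axis), ordered by the control mean; symbols give the replicate number. The 10 genes span from 0.356 CPM per kb (Angpt1) to 65.0 CPM per kb (Pdgfrb) in control, and Hgf and Angpt1 show the widest gap between grey and red symbols.

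Within the PDGF ligands (Pdgfa, Pdgfb, Pdgfc and Pdgfd, per exon length), Pdgfa made up 56.7% ± 4.60 of transcripts in control and 58.0% ± 5.53 with DKK1 (SD, n = 3 each; exact permutation test, two-sided, p = 0.7). Within the VEGF family (Vegfa, Vegfb, Vegfc, Vegfd and placental growth factor, Pgf), Vegfa made up 55.5% ± 2.82 in control and 60% ± 3.49 with DKK1 (exact permutation test, two-sided, p = 0.2). Both shares were higher with DKK1 in each pair. The differences in pairs 1 to 3 were 5.62, 4.42 and 3.68 percentage points for Vegfa. For Pdgfa they were 2.55, 0.913 and 0.571 percentage points.

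The other genes of these pathways were followed in 6 lists with 110 genes, of which 106 were tested; the gene called the most abundant of a list is the one with the highest CPM, which is not corrected for length. Unpaired, 2 were called higher (Spry2 and Hif1a) and 2 lower (Timp3 and Ptprb); in the paired fit 16 were higher and 10 lower. Those called in the paired fit alone had unpaired adjusted p-values of 0.0568 (Zfp36) to 0.61 (Dusp4, outside the rule for named genes), and for them the text gives the paired value. An unadjusted p under 0.05 was found for 26 of the 106. The shares of all genes given above, 10.6% for an unadjusted p under 0.05 and, in the paired fit, 4.96% higher and 4.46% lower, are those beside which the counts of each list stand. Their median log2 fold change was -0.01, against 0.00 for all genes tested.

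Among the 14 receptors and co-receptors of these ligands, none was called unpaired, where 2 had an unadjusted p under 0.05, and the paired fit called 1 higher and 1 lower. Sdc4, a heparan sulphate co-receptor, went from 152 ± 13 to 179 ± 9.25 CPM (SD, n = 3 each; paired edgeR adjusted p = 8.04e-05), and Cspg4, the NG2 proteoglycan that binds PDGF-AA, from 21.5 ± 5.54 to 15.7 ± 3.34 CPM (adjusted p = 0.000356). Lrp1, an endocytic co-receptor of PDGF receptor beta, was the most abundant at 2290 ± 66.5 and 2216 ± 196 CPM. The receptors named next were chosen after their values were seen. The HGF receptor gene Met was at 25.5 ± 1.36 and 24.2 ± 2.59 CPM in control and DKK1 cells. The VEGF-C receptor gene Flt4 was at 26.9 ± 3.22 and 26.5 ± 3.70 CPM. Kdr, which encodes VEGFR2, was at 8.02, 8.74 and 11.7 CPM in control replicates 1 to 3 and at 6, 6.54 and 14.8 CPM in DKK1 replicates 1 to 3. It was the lower with DKK1 in pairs 1 and 2 and the higher in pair 3, and its paired log2 fold change of -0.13 (edgeR adjusted p = 0.642) was -0.42 without replicate 3 (adjusted p = 0.0513). Tek, which encodes TIE2, was at 2.10 ± 0.486 and 1.92 ± 0.483 CPM.

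Of the other ligands and relatives, 9 of 10 were tested and 0 were called unpaired, where 4 had an unadjusted p under 0.05. In the paired fit Angptl4, a secreted lipase inhibitor induced by hypoxia, rose from 52.9 ± 7.02 to 73.7 ± 14.9 CPM (SD, n = 3 each; edgeR adjusted p = 9.46e-06). Pdgfrl, a receptor-like gene, fell from 6.83 ± 0.473 to 5.32 ± 0.498 CPM (adjusted p = 0.0411), and without replicate 3 it did not pass (0.169). Angptl2, which had the highest control CPM of the list, was at 64.7 ± 2.85 and 61.9 ± 2.56 CPM and was not called.

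The list of proteases, inhibitors and binding factors that process the ligands had 19 tested genes, of which the paired fit called 5 higher and 4 lower. Timp3, an inhibitor of metalloproteinases that also blocks VEGF binding to VEGFR2, was the 1 called unpaired and fell from 679 ± 8.25 to 585 ± 14.5 CPM (SD, n = 3 each; edgeR adjusted p = 0.02 unpaired, 1.61e-05 paired). Pcsk5, a proprotein convertase, rose in the paired fit from 7.68 ± 1.79 to 13.2 ± 2.08 CPM (adjusted p = 0.000105), and Plau, which encodes urokinase, from 146 ± 11.2 to 175 ± 18.1 CPM (adjusted p = 2.44e-05). Pcsk6 was lower, from 55.3 ± 0.609 to 50.2 ± 3.80 CPM (paired adjusted p = 0.0499, and 0.0524 without replicate 3). The most abundant gene of the list, thrombospondin 1 (Thbs1), was at 12745 ± 718 and 12418 ± 359 CPM and was not called.

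Of the 30 tested adaptors and effectors of receptor tyrosine kinases, 0 were called unpaired, where 2 had an unadjusted p under 0.05, and the paired fit called 1, Map2k1 (the kinase MEK1), which rose from 193 ± 2.69 to 209 ± 6.30 CPM (SD, n = 3 each; edgeR adjusted p = 0.00563). Akt1, the most abundant of them, was at 475 ± 3.67 and 465 ± 2.95 CPM.

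Negative regulators of these receptors moved both ways, with 4 of 20 higher and 3 lower in the paired fit. Spry2, a Sprouty inhibitor of the RAS pathway, rose from 51.7 ± 2.08 to 71.9 ± 3.89 CPM (SD, n = 3 each; edgeR adjusted p = 0.00696 unpaired), while its relative Spry1 fell from 77.1 ± 9.28 to 64.4 ± 6.77 CPM in the paired fit (adjusted p = 0.000105). Errfi1, an inhibitor of the epidermal growth factor receptor and the most abundant of the list, rose from 220 ± 15.1 to 294 ± 33.2 CPM in the paired fit (adjusted p = 6.35e-07). Socs3, a feedback inhibitor of cytokine signalling, went from 43.9 ± 5.00 to 65.9 ± 10.8 CPM (paired adjusted p = 2.73e-05), and the phosphatase gene Ptpn2 from 22 ± 0.990 to 25.9 ± 1.54 CPM (0.0094, and 0.0656 without replicate 3). Ptprb, a phosphatase known for acting on TIE2 in endothelium, fell from 47.6 ± 3.92 to 36.8 ± 0.169 CPM (adjusted p = 0.0365 unpaired).

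The last list holds hypoxia factors and other regulators of Vegfa, of which 4 of 14 were higher and 1 was lower in the paired fit. Hif1a, which encodes the oxygen-regulated subunit of hypoxia-inducible factor and was the most abundant, rose from 373 ± 5.76 to 473 ± 9.98 CPM (SD, n = 3 each; edgeR adjusted p = 0.00387 unpaired). Egln3, a prolyl hydroxylase that marks that subunit for removal, rose from 12.7 ± 1.11 to 18.0 ± 1.96 CPM in the paired fit (adjusted p = 0.000621). Zfp36 and Zfp36l1, which encode proteins that speed the decay of Vegfa and other messages with AU-rich elements, rose by paired log2 fold changes of 0.31 and 0.32 (adjusted p = 0.000246 and 3.03e-05). Atf4, a stress-response factor, fell by 0.09 on the log2 scale in the paired fit (adjusted p = 0.0197).

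**Figure D5:**
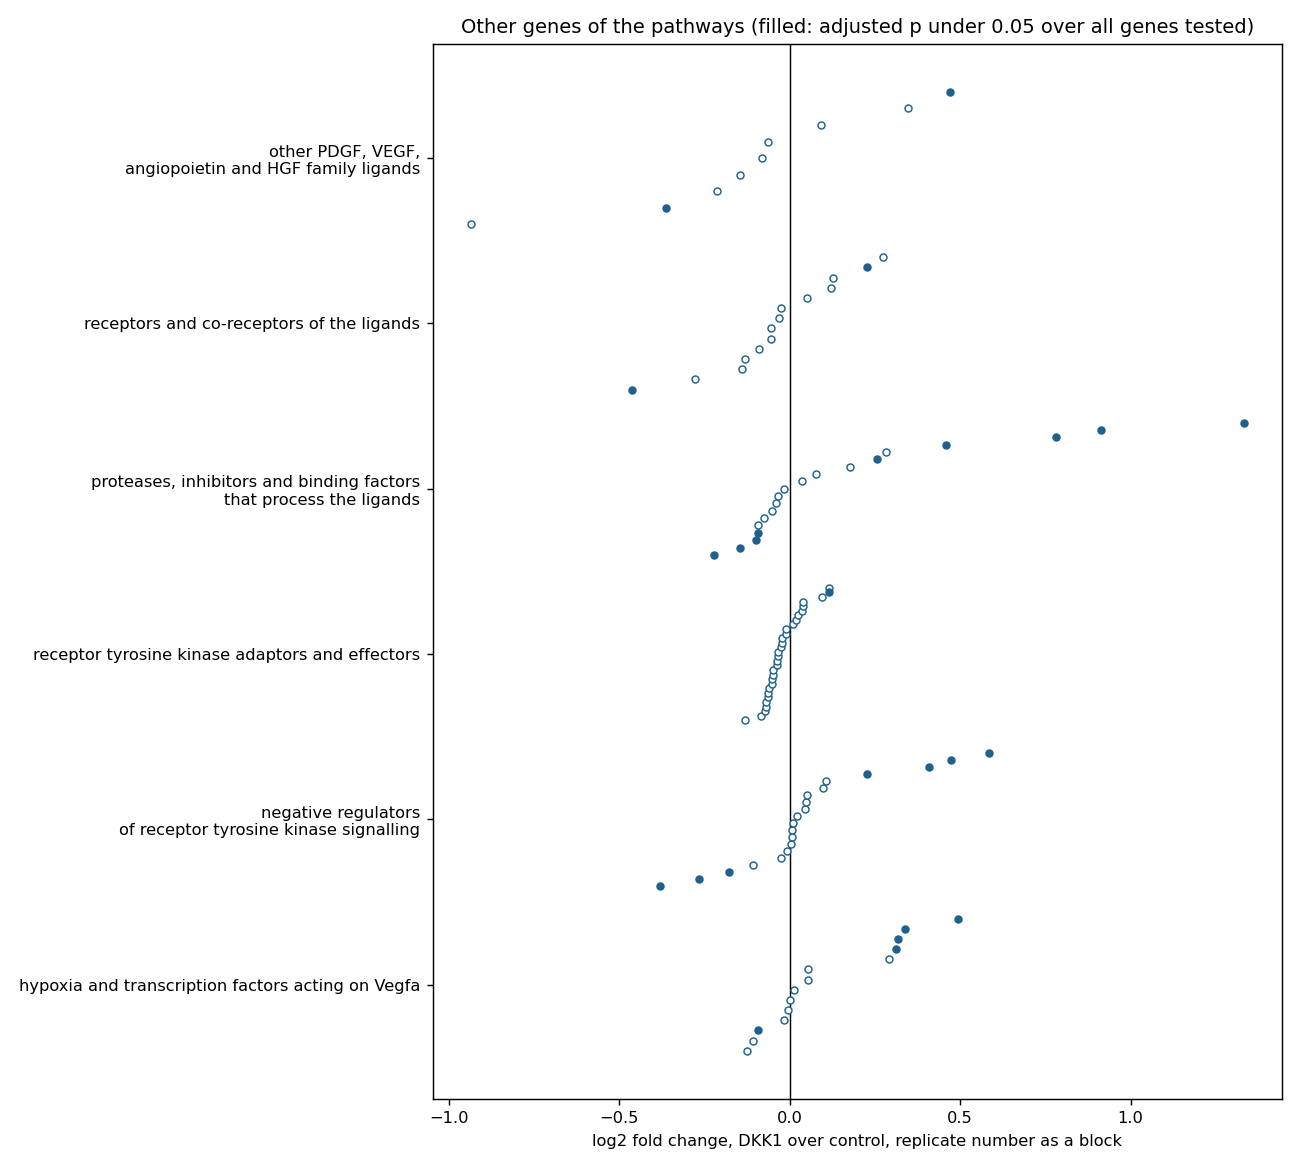
Log2 fold change of DKK1 over control in the paired fit for each tested gene of the 6 lists, 1 circle per gene ordered by value within its list. Filled circles passed the adjusted p threshold: 16 to the right of 0 and 10 to the left.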

How the data were processed

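RNA sequencing was analysed for 6 samples of mouse lung fibroblasts. The authors deposited RSEM expected counts per gene, 1 column per sample and not scaled; STAR, RSEM, edgeR 4.2.1 and the builds GRCm38 and mm10 are named in the submitters' processing notes, with no roles. The annotation release, strandedness and filters are not given in the sources used here. Symbols were found for 45143 of 45706 identifiers, and coordinates, exon lengths, overlaps and GC content came from GENCODE M21 (GRCm38); 98.7% of the table's transcript identifiers are in it.

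Expected counts were rounded and tested with edgeR 4.0.16 in R 4.3.3 (filterByExpr with a minimum count of 10, TMM, quasi-likelihood test, two-sided, Benjamini-Hochberg adjustment over all 14635 genes). Standard errors are the absolute log2 fold change over the square root of F, so they and the 95% intervals are approximate. CPM use whole-library totals; 3 counts are 0.0864 to 0.133 CPM, which covers counting error only, since PCR copies without molecular identifiers are not independent molecules. Replicate numbers in the titles were taken to pair the samples because deviations of same-numbered samples correlated in all 3 pairs (0.257, 0.207 and 0.38); what a number marks is not given in the sources used here. Replicates of a group were all separate libraries by their counts (chi-square per degree of freedom 4.9 to 7.63).

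The members, pathway lists and cell type markers were chosen with earlier results of these data known. Pathway genes were named if called in either fit (at most 6 per list, by unpaired p), with the most abundant of each list; others are said to be chosen after their values were seen. Alternatives were DESeq2 1.42.0, limma-voom (limma 3.58.1), other scalings and filters, unrounded counts, equal depth, removal of GC and length trends, the block, and leaving out libraries; leaving out replicate 3 of both groups was added after seeing the data.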

Additional observations from a re-analysis of the deposited data

How the results depend on the processing

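The count of members called was 1 (Hgf) unpaired, 3 without a low-count filter (with Vegfa, adjusted p = 0.0405, and Angpt1, 0.0411), 6 with the replicate block, 6 when GC and length trends were also removed, 4 in DESeq2 with the block, and 6 with the block and without replicate 3; leaving out 1 library gave 1 to 2. The counts over all genes were 131 unpaired, 329 without a low-count filter, 1379 with the block, 1325 with these trends also removed, 291 in DESeq2, 551 in DESeq2 with the block, 149 without replicate 3 of both groups, and 1060 with the block and without replicate 3. Leaving out 1 library gave 36 to 139, with 51 without control replicate 1, 36 without control replicate 2, 44 without DKK1 replicate 1 and 57 without DKK1 replicate 2. Of the pathway genes, 4 were called unpaired, 13 without a low-count filter, 26 with the block (the same count with these trends removed), 12 in DESeq2, 19 in DESeq2 with the block, 7 without replicate 3 and 23 without it and with the block; leaving out 1 library gave 2 to 5. The cause was not tested.

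No called member changed sign. Of the members not called in the unpaired fit, Pdgfb, Pdgfc and Vegfd did across the fits that left out 1 library. The others kept their sign in those fits. Pdgfb ran from -0.64 to 0.20 (0.1966 without control replicate 3). Pdgfc ran from -0.29 to 0.05 (0.0515 without DKK1 replicate 1, 0.0047 without DKK1 replicate 2). Vegfd ran from -0.36 to 0.08 (0.0805 without control replicate 2, 0.0154 without DKK1 replicate 3). The difference in the Pdgfa share of PDGF ligands, 1.35 percentage points, was -1.27 to 4.24 (-1.16 without control replicate 3, -1.27 without DKK1 replicate 1). The differences in the log2 ratio of Pdgfra to Pdgfrb (0.264 to 0.497) and the Vegfa share (2.66 to 6.08) kept their sign. With the replicate block these differences (0.379, 1.35 and 4.57) are the same by arithmetic, which says nothing of their stability. Angpt1 had the fewest counts of the members, 33 to 120 per library, and thinning every library to the smallest total gave it 0.79 and Pdgfa -0.05.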
